A study of Homo sapiens with 6 samples.

Results

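Aquaporins, carbonic anhydrases, bicarbonate transporters and the non-gastric proton pump were described here as 9 genes of 26364 in the deposited table, found by symbol. They are the water channel genes AQP3, AQP4 and AQP5, the carbonic anhydrase genes CA2 and CA12, the bicarbonate transporter genes SLC4A2, SLC4A4 and SLC26A4, and ATP12A, the catalytic subunit of the non-gastric H+/K+ pump. Their transcripts were measured by RNA-seq of total RNA from Calu3, an established human line from a lung adenocarcinoma. Cells received either negative control siRNA (siNC, control genotype) or siRNA against the bromodomain gene BRD8 (siBRD8, BRD8 KD), each at 20 nmol with RNAiMax, and each treatment had 3 libraries. Both groups are the same cell line and share its cancer genome. The extraction protocol describes confluent cells at harvest, but it speaks of HBE cells. The comparison asks which transcripts differ in lung epithelial cells after siRNA against BRD8, which belongs to the TIP60 complex that acetylates histones.

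Airway epithelium sets the volume and pH of the liquid that covers it by moving salt, water and bicarbonate. Aquaporins let water follow salt across the membrane. AQP3 also passes glycerol and lies in basolateral membranes, and AQP5 lies in the apical membrane of gland cells. Carbonic anhydrases interconvert carbon dioxide and bicarbonate, inside the cell for CA2 and at the outer face of the membrane for CA12. SLC4 proteins bring bicarbonate or chloride across the basolateral membrane, pendrin (SLC26A4) exchanges chloride for bicarbonate at the apical side, and ATP12A secretes acid into the airway liquid. Calu3 cells resemble the serous cells of airway glands and are widely used to study bicarbonate secretion.

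Of the 9 genes 5 rose after BRD8 siRNA, none fell and 4 did not pass the test (limma, adjusted p under 0.05 over 15354 genes). Those that rose were AQP3, CA2, ATP12A, CA12 and AQP5, in order of fold change. Over all genes tested, 10.1% rose and 8.93% fell, so 19% passed in either direction. The libraries of the groups did not overlap for the same 5 genes, which was the case for 36.8% of all genes tested. In the authors' deposited table the same 5 had an adjusted p under 0.05, against 20.4% of its genes with a value. The median log2 fold change was 0.46 over the 9 genes and -0.01 over all genes tested. The 9 genes were chosen with earlier results of these data known, so these counts describe them and test nothing about the choice.

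The groups behind this comparison were checked on BRD8 itself. BRD8 lay between 2751 and 3067 normalized counts in the control libraries and between 1084 and 1312 in the BRD8 siRNA libraries (log2 fold change -1.30, SE 0.0904), and 132 bases of its exons overlap KIF20A on the opposite strand. Epithelial markers were abundant, and CDH1, KRT8 and ELF3 rose. All 7 of the list (EPCAM, CDH1, KRT7, KRT8, KRT18, KRT19 and ELF3) were above a mean of 10 normalized counts. All 5 markers of the ionocyte list (FOXI1, ASCL3, ATP6V1G3, ATP6V0D2 and STAP1) and all 3 of endothelium (PECAM1, VWF and CDH5) stayed under that mean. Other lists were mixed. Of 5 ciliated cell markers FOXJ1, DNAI1 and TEKT1 were under it, while DNAH5 and CCDC39 had control means of 493 and 311. Of 4 alveolar type 2 markers SFTPC, SFTPA1 and SFTPB were under it, while ABCA3 had 1543. Of 4 alveolar type 1 markers HOPX was under it, and RTKN2 fell from 1627 to 986. CLIC5 went from 17.7 to 37.8 and AGER from 66.8 to 65.5 without passing. Of 4 leukocyte markers PTPRC and CD3E were under it, while LYZ had 17527 and CD68 rose from 1486 to 1926. Another gene overlaps 81.73% of the CD68 exon length on the same strand, and 33.96% of that of LYZ is overlapped on the opposite strand. Of 6 fibroblast markers COL1A2 had 0 reads and COL3A1, DCN and PDGFRA were under the mean of 10, while COL1A1 had 189 and LUM rose from 28.5 to 54.7. The part of these markers in the results was not tested. The libraries held 33640814 to 37896467 reads assigned to genes. Along principal component 2, with 20.6% of the variance, control library 2 lay away from the other 5 libraries. Whether the 3 libraries of a group stem from separate cultures is not in the labels, and the spread behind each p-value may therefore be technical. In bulk RNA fewer cells of a type and less RNA per cell cannot be told apart.

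To show what lies in front of the genes that rose, the 250 bases upstream of the RefSeq start (GRCh38.p14) are printed for AQP3, AQP5, CA12 and ATP12A, which each have 1 start in the promoter table. CA2 has no entry there. Capitals mark matches on either strand to any of 5 motifs, which are the TATA box searched as TATAAA, the CCAAT box searched by those 5 letters, the GC box searched as GGGCGG, the E-box searched as CACGTG and a nuclear receptor hexamer searched as AGGTCA.
AQP3, chr9:33447594-33447843, minus strand: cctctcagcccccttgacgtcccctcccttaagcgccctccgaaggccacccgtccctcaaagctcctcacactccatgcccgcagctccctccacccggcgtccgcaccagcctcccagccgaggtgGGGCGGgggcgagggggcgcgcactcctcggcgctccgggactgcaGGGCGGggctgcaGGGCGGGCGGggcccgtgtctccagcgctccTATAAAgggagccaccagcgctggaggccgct
AQP5, chr12:49961622-49961871, plus strand: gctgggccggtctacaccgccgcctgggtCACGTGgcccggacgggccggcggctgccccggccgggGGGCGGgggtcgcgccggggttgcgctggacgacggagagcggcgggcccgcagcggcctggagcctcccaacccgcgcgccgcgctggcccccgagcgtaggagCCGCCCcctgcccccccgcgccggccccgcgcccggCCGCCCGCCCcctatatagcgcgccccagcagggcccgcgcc
CA12, chr15:63381847-63382096, minus strand: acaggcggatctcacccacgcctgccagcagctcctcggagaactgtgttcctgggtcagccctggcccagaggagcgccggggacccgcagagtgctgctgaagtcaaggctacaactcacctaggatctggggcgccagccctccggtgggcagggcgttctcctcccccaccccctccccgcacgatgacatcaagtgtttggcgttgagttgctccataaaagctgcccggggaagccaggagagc
ATP12A, chr13:24680158-24680407, plus strand: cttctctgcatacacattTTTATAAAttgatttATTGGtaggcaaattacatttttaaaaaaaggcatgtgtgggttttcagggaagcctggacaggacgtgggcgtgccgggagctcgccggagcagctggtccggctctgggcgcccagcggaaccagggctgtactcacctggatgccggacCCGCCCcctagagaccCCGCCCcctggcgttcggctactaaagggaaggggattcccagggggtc

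No motif of this set was found in all 4 sequences, and the GC box was found in 3. The AQP3 sequence held a TATA box that starts 32 bases before the RefSeq start and 4 GC boxes, of which 2 overlap. AQP5 held 4 GC boxes, 2 of them overlapping, and an E-box, and its GC content of 84.4% was the highest of the 4, against a median of 58.0% over 35116 upstream sequences of the same length. ATP12A held 2 GC boxes within 65 bases of the start and, farther upstream, overlapping TATA box matches on both strands and a CCAAT box. The CA12 sequence matched none of the 5 motifs. A GC box was found in 42.6% of all upstream sequences, a CCAAT box in 32.0%, the nuclear receptor hexamer in 12.1%, a TATA box in 10.7% and the E-box in 6.34%. These matches describe letters and do not show binding.

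AQP3, the aquaglyceroporin, had the largest fold change of the 9 genes. Its control libraries held 351, 409 and 357 normalized counts and its BRD8 siRNA libraries 935, 919.8 and 785. Even the lowest BRD8 library stood far above the highest control library. The means were 372 ± 32.2 and 880 ± 82.5 (SD, n = 3 each), a 2.36-fold difference (log2 fold change 1.24, SE 0.105, adjusted p = 2.30e-04). By fold change AQP3 ranked 168 from the top of 15354 genes. AQP3 is also made by airway basal cells, and 2 of the 4 basal cell markers measured here, KRT14 and TP63, rose. The summed level of KRT5, KRT14, TP63 and NGFR was 372 to 547 normalized counts in control libraries and 841 to 994 in BRD8 libraries. KRT14 held most of this sum, with means of 303 in control and 756 in BRD8 libraries, and TP63 had 13.1 and 27.2. KRT5 and NGFR did not pass, at log2 fold changes of -0.06 and -0.37. The part of basal-type transcripts in the AQP3 result was not tested.

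AQP5, the gland cell water channel, rose by less. It stood at 1080.5, 1387 and 1148 normalized counts in the control libraries and at 1699.8, 1771 and 1497 in the BRD8 siRNA libraries. The groups did not overlap, but control library 2 came close to the lowest BRD8 library. The fold difference was 1.37 (means 1205 ± 161 and 1656 ± 142, log2 fold change 0.46, SE 0.111, adjusted p = 0.0209). The call ended without control library 1 (adjusted p = 0.0675) and without control library 3 (0.0900). It also ended without BRD8 library 1 (0.0697) and without BRD8 library 2 (0.0814), at log2 fold changes of 0.39 to 0.44.

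AQP4, a basolateral water channel, did not pass. Its values were 362, 282 and 368 normalized counts in control libraries and 376, 367 and 469.8 in BRD8 siRNA libraries. The groups overlapped, since BRD8 library 2 lay just below control library 3. The log2 fold change was 0.26 with a 95% interval of -0.06 to 0.58 (adjusted p = 0.232). After the dependence of each library on transcript length and base composition was removed, it was 0.35 and passed (adjusted p = 0.0146).

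**Figure D1:**
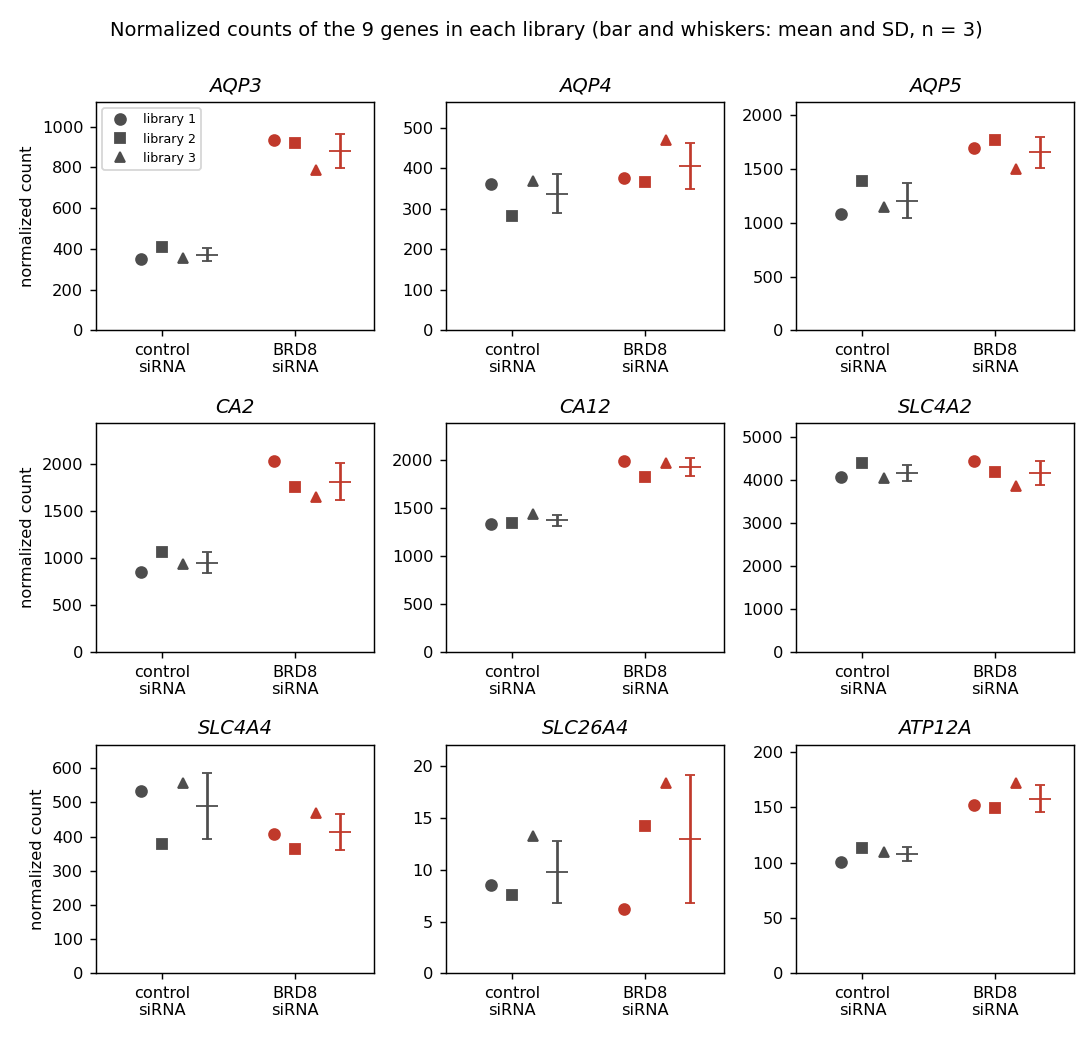
Normalized counts (y axis, from 0) of the 9 genes in 3 control siRNA libraries (grey) and 3 BRD8 siRNA libraries (red), with markers for library number and a bar with whiskers for mean and SD. AQP3, AQP5, CA2, CA12 and ATP12A show groups that do not overlap, and AQP4, SLC4A2, SLC4A4 and SLC26A4 show groups that do.

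CA2, the cytosolic carbonic anhydrase, had the next largest fold change. Control libraries held 847, 1063 and 929 normalized counts and BRD8 siRNA libraries 2022, 1752 and 1640.5. All BRD8 libraries were above all control libraries. The means were 947 ± 109 and 1805 ± 196, a 1.91-fold difference (log2 fold change 0.93, SE 0.111, adjusted p = 0.00106).

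CA12, the membrane-bound carbonic anhydrase that faces outward, was at 1335, 1344 and 1441 normalized counts in control libraries and at 1986, 1819.8 and 1970.1 in BRD8 siRNA libraries. The spread within each group was small and the groups stood apart. Its 1.40-fold rise (means 1374 ± 58.6 and 1925 ± 91.6, log2 fold change 0.49, SE 0.0753) had an adjusted p of 0.00335 in limma. AQP3, CA2 and CA12 passed in each of the 6 fits that left out a library.

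ATP12A, the acid-secreting pump, was less abundant. It had 100.465, 113 and 109.8 normalized counts in control libraries and 152, 149.8 and 172 in BRD8 siRNA libraries. The groups did not overlap and the control libraries lay close together. The difference was 1.46-fold (means 108 ± 6.65 and 158 ± 12.3, log2 fold change 0.54, SE 0.123, adjusted p = 0.0162). Without control library 1 the adjusted p was 0.0571, without control library 3 it was 0.0599 and without BRD8 library 3 it was 0.0764. ATP12A needs a beta subunit and can use that of the sodium pump, ATP1B1. ATP1B1 stood at 17526 ± 308 normalized counts in control and 22825 ± 354 in BRD8 libraries, a rise of 0.38 on the log2 scale (adjusted p = 0.00462). Of its exon length 6.48% overlaps NME7 on the other strand.

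The bicarbonate transporters among the 9 genes did not pass. SLC4A2, the basolateral anion exchanger AE2, was the most abundant of them, at 4071, 4389 and 4057 normalized counts in control libraries and 4434, 4198 and 3869 in BRD8 siRNA libraries. Its log2 fold change of -0.00 had a 95% interval of -0.18 to 0.17, and its sign changed under TMM scaling, quantile normalization, edgeR and DESeq2. Exons of SLC4A2 overlap those of CDK5 on the other strand over 331 bases and those of an antisense gene, AC010973.2, over 714 bases. The strand setting of the counts is not given, so the part of reads from these genes in the SLC4A2 level is not known.

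SLC4A4, the sodium bicarbonate cotransporter NBCe1, had 535, 379 and 557 normalized counts in control libraries and 408, 363 and 469.8 in BRD8 siRNA libraries. Control library 2 was low and lay among the BRD8 libraries. The log2 fold change was -0.23 (95% interval -0.60 to 0.13, adjusted p = 0.354). Without control library 2 it was -0.41 and passed (adjusted p = 0.0180).

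SLC26A4, pendrin, was near the floor of detection at 6 to 19 reads per library. Its level was 8.53, 7.56 and 13.2 normalized counts in control libraries and 6.24, 14.2 and 18.4 in BRD8 siRNA libraries. The lowest and the highest of the 6 values were both in the BRD8 group. The interval of the log2 fold change, -0.68 to 1.26, includes both no change and a 2-fold rise, so such a rise was not excluded. Without BRD8 library 3 the log2 fold change was -9.72e-04.

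**Figure D2:**
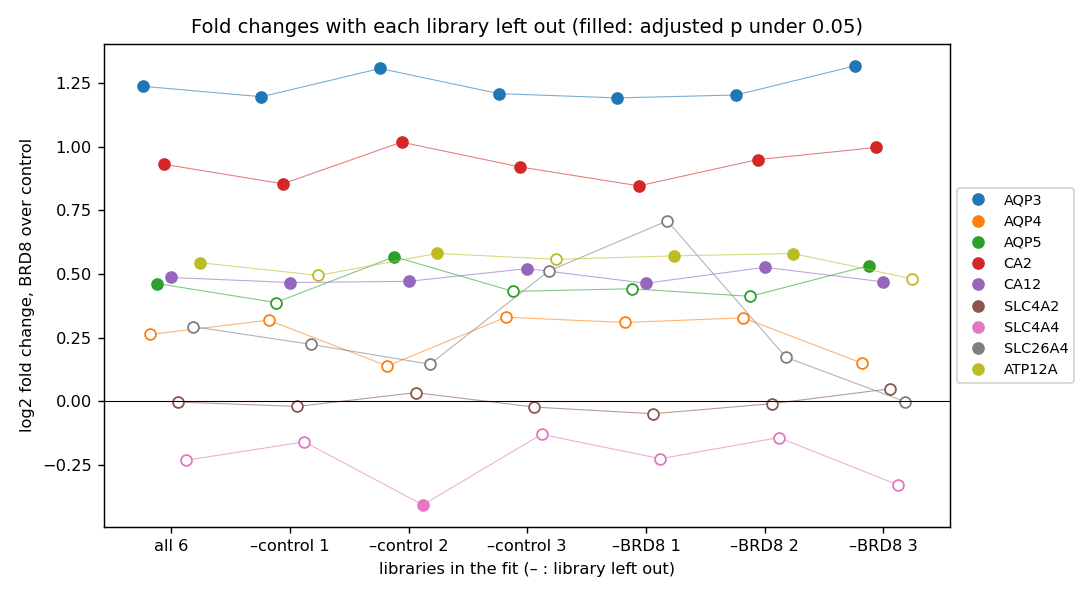
Log2 fold change of each of the 9 genes (y axis) with all 6 libraries and with each library left out in turn (x axis); filled points have an adjusted p under 0.05 in limma. AQP3, CA2 and CA12 stay filled in all fits, while AQP5 and ATP12A lose the call in 4 and 3 fits and SLC4A4 gains it without control library 2.

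Control library 2 differed from the other control libraries in several of these genes. Its AQP5 level was higher by 0.32 on the log2 scale than the mean of control libraries 1 and 3, CA2 by 0.26 and AQP3 by 0.21. In the same library SLC4A4 was at -0.52, SLC26A4 at -0.44 and AQP4 at -0.37, while CA12 was at -0.05, SLC4A2 at 0.11 and ATP12A at 0.11. The 3 genes that were higher have longest transcripts of 1450 to 2911 bases, and the 3 that were lower of 4930 to 7640 bases. ATP12A and SLC4A2 have 4258 and 4925 bases. CA12, with 6413 bases, is longer than AQP4 and SLC26A4 and yet was close to 0. Across the 14358 tested genes with a known length, which are not independent replicates, this difference had a Spearman rho of -0.53 with transcript length and 0.46 with GC content. The part of length and GC content in the members' changes was not tested beyond the fit with that trend taken out. In that fit AQP3, CA2, CA12, AQP5 and ATP12A rose by 1.14, 0.89, 0.52, 0.33 and 0.53 on the log2 scale.

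The ratio between members was compared for 4 pairs. The log2 ratio of AQP3 to AQP5 was -1.62, -1.76 and -1.69 in control libraries and -0.86, -0.95 and -0.93 in BRD8 siRNA libraries, a difference of 0.78. The groups did not overlap. For CA2 over CA12 the ratio was higher by 0.45 on the log2 scale, from -0.54 ± 0.178 to -0.10 ± 0.150. ATP12A over SLC4A2 was higher by 0.55 and AQP3 over AQP4 by 0.98. Each of these 4 ratios, chosen after the values were seen, gave p = 0.1 in an exact two-sided permutation test (0.1 adjusted over the 4), the smallest that 3 against 3 libraries can give. No pair could therefore pass, and the ratios are given as a description.

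Per length of exon, AQP5 was the most abundant of the 14 aquaporin genes. In normalized counts per kilobase AQP5 had 639 in control and 879 in BRD8 siRNA libraries, AQP3 126 and 298, AQP4 56.3 and 67.5 and AQP1 47.6 and 87.6. The summed aquaporin level per kilobase went from 904 ± 95.1 to 1377 ± 81.2. AQP3 made up 14.0% ± 0.281 of this sum in control and 21.6% ± 0.861 in BRD8 libraries, while AQP5 went from 70.6% ± 1.98 to 63.7% ± 1.82. Both shares were apart between groups (exact permutation p = 0.1, the smallest possible, and 0.175 adjusted over 14 such tests). With the longest transcript in place of exon length the share of AQP3 was higher by 6.53 percentage points instead of 7.65.

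Among the 15 carbonic anhydrase genes CA9, a membrane-bound form induced by hypoxia, had the highest level per kilobase in control libraries, at 627, but 38.5% of its exon length overlaps ARHGEF39 on the other strand. CA2 had 446 per kilobase in control and 850.2 in BRD8 siRNA libraries, and CA12 188 and 263. The share of CA2 in the summed level per kilobase was 28.1%, 28.2% and 27.5% in control libraries and 45.02%, 39.2% and 40.7% in BRD8 libraries. CA9 held 39.1% ± 3.15 of the sum in control libraries and 31.6% ± 3.32 in BRD8 libraries. CA2 thus stood above CA9 in each BRD8 library and below it in each control library. Per kilobase SLC4A2 stood at 549.7 and 549.0, SLC4A4 at 50.9 and 43.0, ATP12A at 24.3 and 35.5 and SLC26A4 at 1.68 and 2.23.

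**Figure D3:**
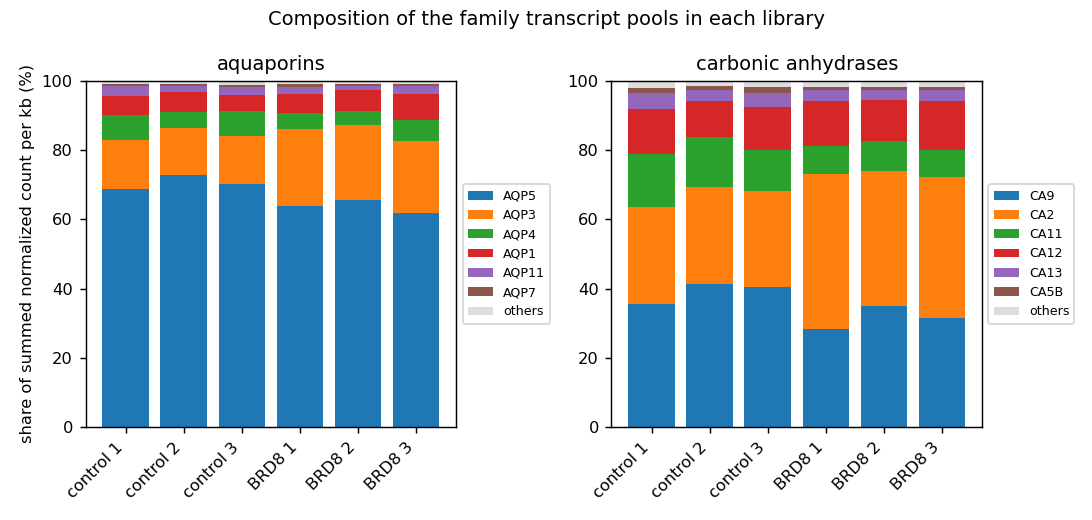
Share of each gene in the summed normalized count per kilobase of exon (y axis, percent) of the aquaporins (left) and carbonic anhydrases (right) in each of the 6 libraries (x axis). AQP3 takes 20.7% to 22.4% of the aquaporin sum in BRD8 siRNA libraries against 13.7% to 14.3% in control libraries, and CA2 takes 39.2% to 45.02% of the carbonic anhydrase sum against 27.5% to 28.2%.

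The wider families of water, acid and base transport were described with 9 lists of 116 genes, of which 88 were tested. Of these 13 rose and 4 fell, and apart from the 9 genes the counts were 8 higher (10.1%) and 4 lower (5.06%) of 79. These shares are read against 10.1% and 8.93% of all genes. The 13 rises became 20 without control library 2 and 8 without control library 3. The 4 falls became 8 without control library 2, 1 without BRD8 library 1 or 2 and 0 without control library 1, control library 3 or BRD8 library 3.

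Of 8 aquaporins tested 4 rose and none fell, with a median log2 fold change of 0.61. Over all genes tested 10.1% rose and 8.93% fell. AQP3, AQP4 and AQP5 belong to the 9 genes chosen with earlier results known, and apart from these 2 of 5 rose. Those 2 were AQP1, a water channel best known from endothelium and kidney, and AQP7, a glycerol channel. AQP1 had 154, 196 and 139 normalized counts in control libraries and 271, 291 and 340.3 in BRD8 siRNA libraries, which do not overlap. Its log2 fold change was 0.89 (SE 0.151, adjusted p = 0.00509). PECAM1, VWF and CDH5 of endothelium together held 3.24 to 6.63 normalized counts in control and 10.4 to 13.3 in BRD8 libraries. Only VWF was higher, with means of 3.70 and 11.4, while PECAM1 went from 0.948 to 0.663 and CDH5 from 0.676 to 0. None of them reached the mean needed for a test. AQP7 went from 30.9 ± 6.23 to 52.4 ± 1.61, a call that ended without any 1 library except control library 2, at adjusted p-values up to 0.101. With all 6 libraries it also ended under quantile normalization (adjusted p = 0.0537), without the filter on low values (0.0523) and in the authors' deposited table (0.0542), where 3 aquaporins rose. The aquaporins that rose numbered 2 when control library 1 or 3, or BRD8 library 1 or 2, was left out. Of the AQP1 exon length 26.5% overlaps another protein-coding gene on the same strand.

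Of 10 carbonic anhydrases tested CA2 and CA12, both among the 9 genes, rose and none fell. In the same fit none of the other 8 passed. CA11, a relative without the enzyme activity, had 461 ± 68.1 and 344 ± 33.4 normalized counts (log2 fold change -0.42, adjusted p = 0.0534), and passed with the dependence on length and base composition removed (adjusted p = 0.00151), in the authors' deposited table (0.0272) and in DESeq2 (0.0259). CA9 did not pass, at a log2 fold change of 0.05 (95% interval -0.28 to 0.37).

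None of 6 SLC4 genes tested rose or fell, with a median of -0.07. None of the 6 had an unadjusted p under 0.05 either. SLC4A7, the electroneutral cotransporter NBCn1, was farthest from 0, at -0.39 (95% interval -0.78 to 0.01). Without control library 2, 2 of the 6 fell, and 1 fell with the dependence on length and base composition removed. Among 8 SLC26 genes 1 rose and 2 fell. SLC26A7, a chloride and bicarbonate transporter, went from 46.6 ± 6.57 normalized counts to 89.9 ± 13.2 (log2 fold change 0.93, adjusted p = 0.00812) and passed in each fit that left out a library. SLC26A2, the sulfate transporter and the most abundant of the family per length, fell from 6784 ± 1214 to 4979 ± 405 (log2 fold change -0.43, adjusted p = 0.0433). The other fall was that of SLC26A10, at -1.25, whose exons overlap B4GALNT1 on the other strand over 49.95% of their length. SLC26A10 was near the floor, at 13, 18 and 13 reads in control libraries and 5, 9 and 4 in BRD8 siRNA libraries. Its means were 15.0 and 5.87 normalized counts, so only the control group lay above the mean of 10 needed for a test. The SLC26A10 call was lost in edgeR (adjusted p = 0.0501), in DESeq2 (0.0925), in the authors' deposited table (0.110) and without the filter on low values (0.0517). With any 1 library left out the SLC26 falls numbered 0 or 1. They were 0 without control library 1 or 3 and without BRD8 library 1 or 3, and 1 without either library numbered 2.

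Outside these families SLC9A7, an exchanger of the Golgi, fell by 0.40, and of the 6 fits that left out a library only that without control library 2 kept the call. The lactate and proton carriers SLC16A1 and SLC16A3 rose by 0.44 and 0.73 on the log2 scale, the latter with an adjusted p of 0.0517 without control library 3. Among 21 subunits of the vacuolar proton pump ATP6V0E1 rose by 0.36 and ATP6V1C1 fell by 0.37, with a median of 0.04 over the list. The ATP6V0E1 call was lost under quantile normalization (adjusted p = 0.0507) and without the filter on low values (0.0512). Without control library 2, 6 subunits rose and 2 fell. Without control library 1 or 3 or BRD8 library 2 or 3 none rose and none fell, and without BRD8 library 1 none rose. None of 13 regulators of bicarbonate and volume transport passed, with OXSR1, a kinase of the WNK pathway, nearest at 0.25 (adjusted p = 0.0513). In several other fits 1 regulator rose, namely with a mean of at least 50, TMM scaling, quantile normalization, edgeR, DESeq2 and the dependence on length and base composition removed, as in the authors' deposited table. With that dependence removed 2 regulators fell. Without control library 2, 1 regulator rose and 1 fell. The most abundant genes per length in the last lists did not pass. In normalized counts per kilobase the adaptor SLC9A3R1 had 1883 in control and 2097 in BRD8 libraries, the carrier partner BSG 2427 and 2448, and the chloride cotransporter SLC12A2 1952 and 1848. Of 5 sodium and proton pump subunits tested ATP12A and ATP1B1 rose, and 1 of them did so when control library 1 or 3 or BRD8 library 3 was left out.

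**Figure D4:**
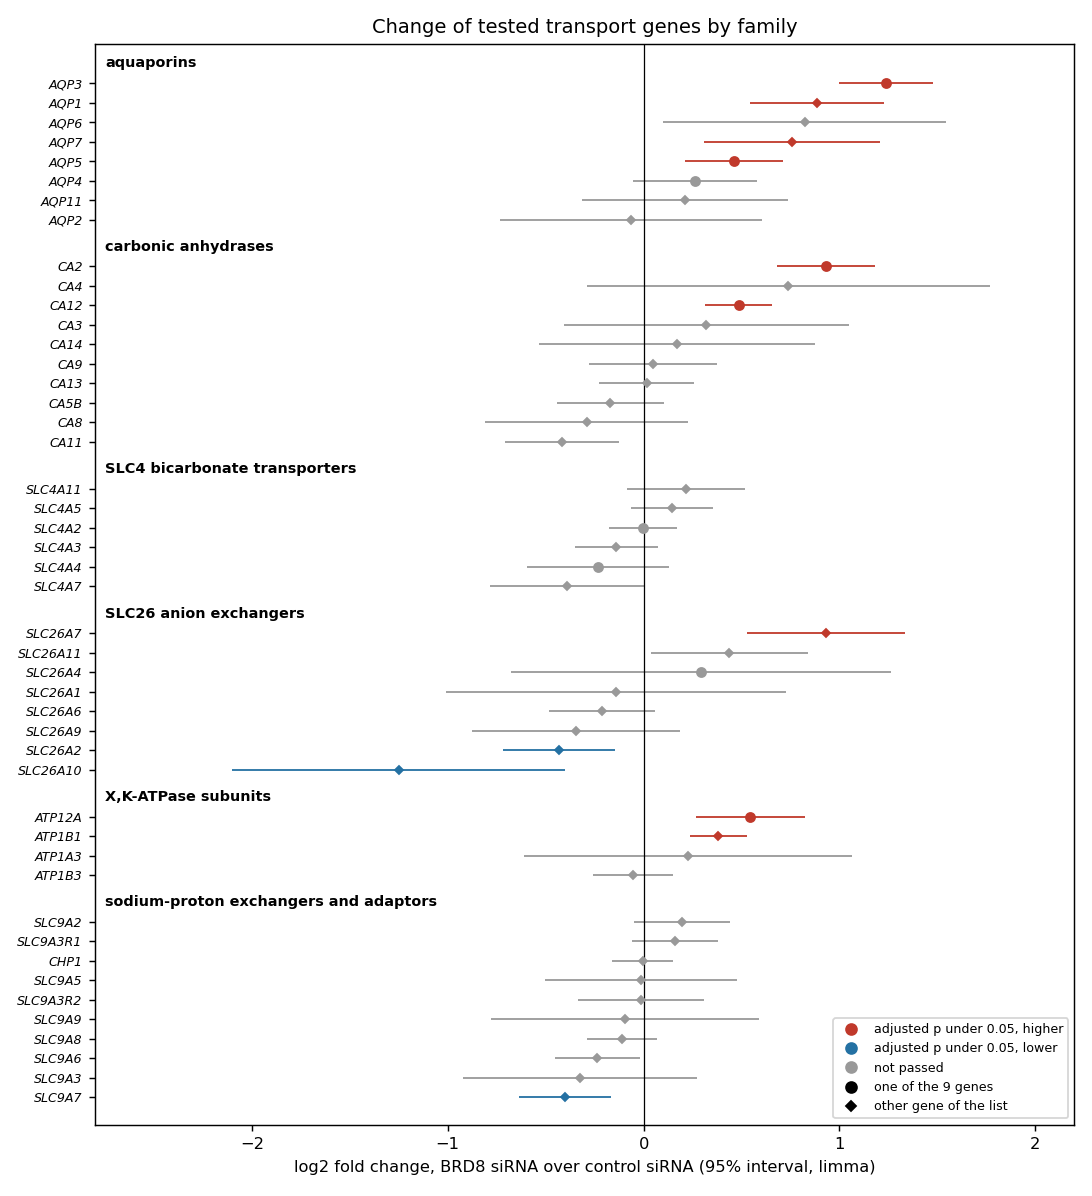
Log2 fold change with 95% interval (x axis) of the tested genes of 6 families that are reported here (y axis); circles are the 9 genes, diamonds other genes, red and blue pass the test higher and lower. Red points are most numerous among aquaporins, with 4 of 8, of which 2 are diamonds, and no SLC4 gene is coloured.

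For each gene that rose, the genes with the most similar profile were found as those with the smallest root mean square difference of centred log2 values over the 6 libraries, among 12743 genes. For AQP3 these were the mucin gene MUC20 (0.0542) and RGS2 (0.0550). CA2 was nearest to ASS1 (0.0354) and GDPD3 (0.0423), and CA12 to TNFAIP1 (0.0244) and FAM98A (0.0323). AQP5 was nearest to FAAH (0.0339) and TMEM139 (0.0383), and ATP12A to TMEM27 (0.0514) and MYD88 (0.0529).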

How the data were processed

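RNA-seq libraries of 6 Calu3 samples were grouped by their titles, 3 with control and 3 with BRD8 siRNA. The extraction protocol in the labels speaks of HBE cells, and grouping and cell line follow the titles. STAR 2.6, featureCounts 1.6.3, DESeq2 1.22.1 and the build hg19 stand in the submitters' processing notes. For the annotation, strand setting and filters the sources used here give nothing. The authors deposited a normalized signal, which is each gene's count over the library's size factor. Their own comparison, in the same deposited table, holds log2 fold changes and errors, a test score, and p-values with adjustment. Whole reads were recovered for 100% of values within 0.01.

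On log2(normalized count + 1), limma 3.58.1 (R 4.3.3) was run with its trended prior variance, for the 15354 genes whose mean reached 10. Folds on this scale understate low genes. p-values were adjusted over all genes by Benjamini and Hochberg. Intervals are 95% intervals of that fit. The quasi-likelihood test of edgeR 4.0.16 called 2969 genes on recovered reads, against 2920 in limma, where 5084 had an unadjusted p under 0.05. Alternatives changed the pseudocount, filter, scaling, tool, length and GC trend, replicate block and libraries. Exon lengths, overlaps and GC content are from GENCODE v29, on another build than the files. The script was tested on simulated counts that held no trend with transcript length or GC content. Its behaviour under such a trend was not tested.

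The genes and lists were chosen with earlier results of these data known. Named by rule were the 9 genes, list genes that passed, the most abundant of each list and nearest profiles, apart from items that are not reported here. SLC4A7, CA11 and OXSR1 were chosen after their values were seen. Symbols that look like dates (28) were left out of the nearest profiles, as were genes with LOC, LINC, MIR or SNOR names.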

Additional observations from a re-analysis of the deposited data

How the results depend on the processing

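AQP3, CA2 and CA12 passed under every alternative run, and AQP5 and ATP12A under all that kept 6 libraries. SLC4A2 changed sign without passing, to 0.0086 with TMM scaling, 0.0066 with quantile normalization, 0.0098 in edgeR and 0.0014 in DESeq2. After removal of the dependence on transcript length and base composition AQP4 passed at 0.35, and 2629 genes of the table and 11 list genes fell. With that removal and the replicate block together AQP4 passed at 0.35, and 2806 and 10 genes fell. The replicate block alone gave 1939 genes higher and 1962 lower, the same 5 members higher, CA11 lower (adjusted p = 0.0134), 1 SLC4 gene lower and 1 regulator higher. Deviations of same-numbered libraries correlated at -0.08, 0.34 and 0.15, and 3 of 6 libraries correlated best with the library of their own number. With 3 libraries per group these values cannot decide whether the numbers pair the libraries.

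With a library left out, members higher numbered 3 to 5 and members lower 0 to 1. Genes of the table higher ranged from 832 to 2445 and lower from 528 to 2784, and list genes from 8 to 20 and 0 to 8. The log2 fold change ranged from 0.39 to 0.57 for AQP5, 0.48 to 0.58 for ATP12A, -0.41 to -0.13 for SLC4A4, -9.72e-04 to 0.71 for SLC26A4. The SLC4A2 values run from -0.0490 to 0.0493. The cause was not tested. Depth limits SLC26A4.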
